A study of Mus musculus with 4 samples.

Results

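Weak peaks of histone H3 lysine 4 trimethylation (H3K4me3) inside genes and away from promoters were examined in mouse gastrocnemius. These peaks were selected on 3 properties: a deposited signal value under 20, more than 5000 bp from every annotated transcription start site (TSS), and overlap with the body of a protein-coding gene. On the 19 autosomes, 8050 of 41009 peaks (19.6%) of the list replicated between pools met all 3. The selection used the signal value itself, so the signal values of the selected peaks are given as a description.

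Chromatin immunoprecipitation sequencing was done on gastrocnemius, a fast-fibre-rich calf muscle, of female B6CASTF1/J mice aged 2 months. B6CASTF1/J is a hybrid of C57BL/6J and CAST/EiJ. The 4 libraries came from 2 tissue pools, E (labelled biological replicate 1) and F (labelled biological replicate 2), with 2 libraries per pool, 2 biosamples in each pool and fragments of 200 to 600 bp. All libraries shared strain, sex, age, tissue and antibody target, so the data hold no contrast of conditions. The libraries of a pool entered one set of peaks together, so there is 1 peak list per pool and no value per library. The lists give peaks and not reads, so the read depth behind a value is unknown. Whether peaks of one pool are missing because of fewer reads or because of less mark cannot be told apart here.

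H3K4me3 is deposited by the SET1 and MLL methyltransferase complexes and is known chiefly as a mark of active and poised promoters, where CpG islands carry broad, high domains. Low levels also occur at active enhancers, at unannotated start sites and downstream along highly transcribed or cell identity genes, where promoter domains can be extended. In skeletal muscle the genes of the contractile apparatus, of the triad that couples excitation to calcium release, and of glycolysis are among the most highly transcribed.

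The sequences at the strongest weak peak of 7 genes discussed below are shown first, since these genes were dense in weak peaks. Of these, 4 have the most peaks per kb among genes with at least 5 peaks and 10 kb to hold them. The other 3 (Hdac5, Cacnb1 and Pvalb) are genes of the muscle lists with at least 3 peaks and less than 10 kb to hold them. Each is a 200 bp window centred on the summit, on the plus strand, read from RefSeq assembly GRCm38.p6 (mm10), which represents C57BL/6J, 1 of the parents of the hybrid. Capitals mark a match on either strand to the E-box CAGCTG, the AP-1 site TGACTCA, the nuclear receptor hexamer AGGTCA, the GC box GGGCGG, the MCAT core CATTCC, the MEF2 consensus, the SRF CArG box or the CTCF core. A match describes letters and not a bound site.
Tmem38a (chr8:72578393-72578592): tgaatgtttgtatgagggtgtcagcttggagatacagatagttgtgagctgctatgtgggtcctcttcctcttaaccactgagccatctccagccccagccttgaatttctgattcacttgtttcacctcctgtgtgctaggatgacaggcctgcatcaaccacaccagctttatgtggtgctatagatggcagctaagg
Cnn3 (chr3:121434352-121434551): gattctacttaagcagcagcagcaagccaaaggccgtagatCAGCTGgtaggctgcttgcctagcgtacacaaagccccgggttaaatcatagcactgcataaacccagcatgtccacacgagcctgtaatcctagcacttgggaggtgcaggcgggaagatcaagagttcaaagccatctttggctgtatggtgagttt
Jph2 (chr2:163386541-163386740): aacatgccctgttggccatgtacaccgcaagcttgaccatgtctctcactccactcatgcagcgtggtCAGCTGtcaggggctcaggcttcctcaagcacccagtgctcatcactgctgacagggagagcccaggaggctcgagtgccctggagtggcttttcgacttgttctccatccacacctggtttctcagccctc
Ip6k3 (chr17:27154109-27154308): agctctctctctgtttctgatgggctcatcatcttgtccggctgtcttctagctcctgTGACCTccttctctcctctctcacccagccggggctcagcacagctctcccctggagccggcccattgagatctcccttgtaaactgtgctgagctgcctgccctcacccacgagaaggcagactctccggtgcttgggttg
Hdac5 (chr11:102211691-102211890): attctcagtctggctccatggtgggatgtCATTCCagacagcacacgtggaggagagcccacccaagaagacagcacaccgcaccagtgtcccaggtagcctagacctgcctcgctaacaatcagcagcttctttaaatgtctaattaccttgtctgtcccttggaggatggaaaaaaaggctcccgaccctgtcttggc
Cacnb1 (chr11:98002916-98003115): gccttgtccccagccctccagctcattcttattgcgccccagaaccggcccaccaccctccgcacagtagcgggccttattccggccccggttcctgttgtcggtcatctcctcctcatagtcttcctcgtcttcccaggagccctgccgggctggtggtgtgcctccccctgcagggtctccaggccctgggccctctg
Pvalb (chr15:78198676-78198875): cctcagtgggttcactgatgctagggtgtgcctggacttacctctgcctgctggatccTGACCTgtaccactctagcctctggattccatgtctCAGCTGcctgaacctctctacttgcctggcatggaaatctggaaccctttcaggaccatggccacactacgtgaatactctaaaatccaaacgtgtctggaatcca
The E-box was found in the windows of Cnn3, Jph2 and Pvalb, the nuclear receptor hexamer in those of Ip6k3 and Pvalb (as its reverse complement), and the MCAT core in that of Hdac5. The windows of Tmem38a and Cacnb1 held none of the 8 motifs. The windows of Tmem38a and Cnn3 were 44.5% and 49.0% repeat-masked, and that of Ip6k3 was 24.5%.

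The weak gene-body peaks were short and low. Their signal value, the authors' own enrichment value per peak, had a median of 4.22 (interquartile range 3.27 to 6.12, lowest 1.71), against a median of 7.45 over all autosomal peaks. Their width had a median of 543 bp (interquartile range 351 to 845). The median -log10 q was 6.41, and 183 peaks (2.27%) had a q-value above 0.05. Together the peaks covered 5.48 Mb, or 0.815% of the 669.7 Mb of gene body that lay over 5000 bp from every TSS (eligible body below), at 12.02 peaks per Mb. At the upper edge of the signal rule stood peaks in Sept9 (20.0), Map3k3 (19.9), Apba1 (19.9) and Sema4b (19.9). Peaks in Akap13 (20.01), Mob3b (20.1), 4933402J07Rik (20.1) and Lmtk3 (20.2) fell just outside it. At the edge of the distance rule, peaks in Cyth1, Iqck and Foxo3 lay 5005, 5007 and 5011 bp from a TSS, and those in Pgm5, Rasgrp3 and Lpin1 were left out at 4998, 4995 and 4989 bp. The widest peaks lay in Jph1, which encodes a junctophilin of the triad (8098 bp), Wbp1l (7039 bp), Ppp1r3a, which encodes the glycogen-targeting subunit of protein phosphatase 1 in muscle (6731 bp), and Sdc4, a syndecan of satellite cells (6462 bp).

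The label of the tissue was checked at promoters. All 10 muscle markers (Ckm, Actn3, Mylpf, Des, Ttn, Neb, Ryr1, Myh4, Myh1 and Tnnt3) had a peak within 1000 bp of an own TSS. The same held for 4 of 4 endothelial, 3 of 3 fibroblast, 3 of 3 smooth muscle and pericyte, 3 of 3 macrophage and 2 of 2 Schwann cell markers. The promoters of Cd3e (lymphocyte), Snap25 and Gad1 (neuron), Alb and Ahsg (hepatocyte) and Myh6 and Nppa (cardiac) had none. These few markers do not stand for the longer gene lists used below: 19 of 23 neuronal, 6 of 8 cardiac and 9 of 14 macrophage and lymphocyte genes examined there had a marked promoter, and 0 of 12 hepatocyte genes did. In whole muscle, a low signal in all cells and a higher signal in few cells cannot be told apart.

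Most, but not all, weak gene-body peaks were seen in each pool. Of the 8050 peaks, 5798 (72.0%, 95% Wilson interval 71.0 to 73.0) overlapped a peak of the pool E list and one of the pool F list by at least 1 bp, against 83.7% of all autosomal peaks. Another 1097 (13.6%) overlapped a peak of pool E only, 561 (6.97%) of pool F only, and 594 (7.38%) of neither. The pool lists came from the same reads as the replicated list, so this overlap is no independent check, and the intervals cover counting error only. In 7628 cases (94.8%) the same peak, with the same ends and signal value, stood in the list made from both pools together. When the selection was applied to each list on its own, 8313 peaks of pool E and 7033 of pool F met it.

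Overlap with the pools rose with the signal value. In 5 classes of 1610 peaks each, from weakest to strongest, 26.9%, 52.8%, 82.7%, 97.7% and 100% of peaks overlapped both pools. The weakest class ended at a signal value of 3.11 and the strongest began at 6.86. Median width went the same way, from 346 bp in the weakest class to 953.5 bp in the strongest. Peaks overlapped in both pools had a median signal value of 5.001, those of pool E only 3.25, those of pool F only 3.17 and those of neither 2.88.

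Where both pools had a peak, pool E carried the higher signal value in 5025 of 5798 cases (86.7%). The ratio of E to F had a median of 1.29 (interquartile range 1.11 to 1.52). It was 1.17 over 22953 peaks of any signal value within 5000 bp of a TSS that both pools held. These sets differ in signal limit as well as in place, and the part of each was not tested. Across these 5798 weak peaks the values of the pools had a Spearman correlation of 0.770, given as a description since the peaks share libraries and background. The overlapping peak in pool E came within 5000 bp of a TSS for 83 peaks, and that in pool F for 7. Without these, over 5708 peaks, the median ratio was 1.29 and the correlation 0.785. Signal values of separate lists are on the authors' scale for each list, and what that scale is relative to is not given in the sources used here.

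**Figure D1:**
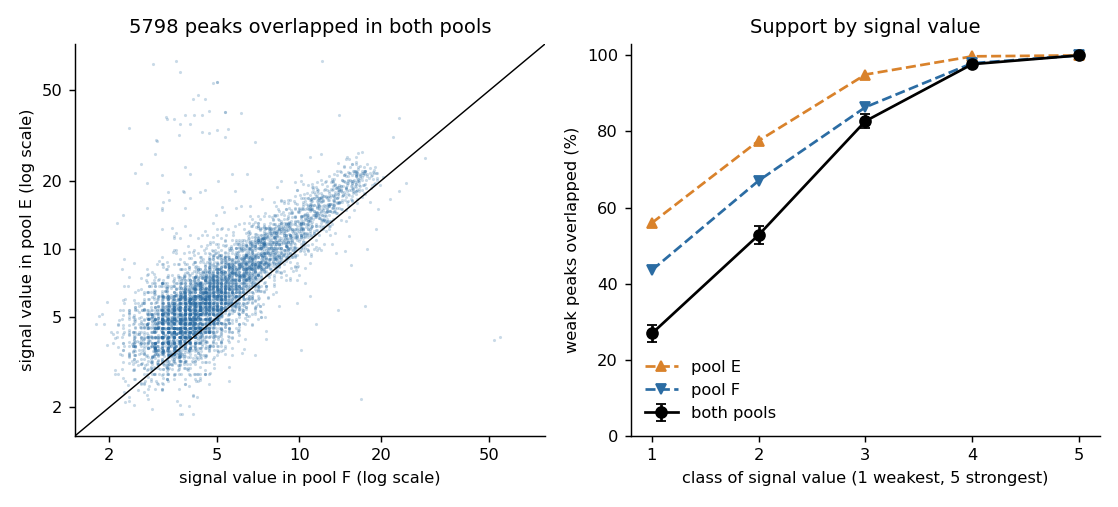
Left, signal value in pool E against pool F (both axes logarithmic) for the 5798 weak gene-body peaks overlapped in both pools; the line marks equal values and 86.7% of points lie above it. Right, percent of weak peaks overlapped by a peak of pool E, pool F and both, in 5 classes of signal value; bars on the black points are 95% Wilson intervals, and the share in both pools goes from 26.9% to 100%.

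A minority of genes held weak gene-body peaks, and the median holder had 2. Of 12666 protein-coding genes with at least 1 kb of eligible body, 3184 (25.1%) held at least 1 such peak. Among these, 1521 (47.8%) held exactly 1, 429 genes held 5 or more and 94 held 10 or more. Genes with a peak had a median of 54.6 kb of eligible body, and those without 12.8 kb. By the same selection 3194 genes held a peak of the pool E list and 2945 a peak of the pool F list, and 2717 of them were in both, or 85.1% of the first and 92.3% of the second. The 214 peaks (2.66%) that lay in more than 1 gene were counted in each.

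Among the 426 genes with at least 5 peaks and 10 kb of eligible body, the median was 0.0531 peaks per kb. The densest was Tmem38a (chr8:72572055-72587282, mm10, plus strand), which encodes TRIC-A, a cation channel of the sarcoplasmic reticulum that balances charge during calcium release. It held 9 peaks in 10.2 kb of eligible body, 0.883 per kb. Their summed width, with any part past the gene end, was 74.1% of that body. By the same selection 7 peaks of pool E and 8 of pool F lay there, and 8 of the 9 replicated peaks overlapped both pools. The signal value was highest 6.44 kb from the gene start, at 8.07 (8.53 in pool E and 7.68 in pool F), and lay between 2.44 and 5.26 in the other 8. A single wide peak in pool E, of signal value 6.85, spanned 4 of them.

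Jph2 (chr2:163336242-163397993, minus strand) encodes junctophilin-2, a protein that tethers the sarcoplasmic reticulum to the T-tubule membrane. It held 24 weak peaks in 56.7 kb, 0.423 per kb, the most peaks of any gene among the 12 densest. The pool lists held 21 peaks there in pool E and 19 in pool F. Of the 24 peaks, 16 overlapped both pools, 4 pool E only, 1 pool F only and 3 neither. The peak nearest the start, 4630 bp wide and intronic, had the highest signal value, 11.2 at 11.4 kb (12.2 in pool E and 10.8 in pool F). The other 23 had values of 2.00 to 6.30 with no steady fall along the gene. The value of 6.30 was reached at 35.1 kb, overlapped in both pools, and 5.57 at 48.8 kb, overlapped in pool E only.

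The other 10 of the 12 densest genes held between 0.322 and 0.427 peaks per kb. Cnn3, which encodes the actin-binding protein calponin-3, held 5 peaks (0.427 per kb), but only 2 of them overlapped both pools. Ip6k3, an inositol hexakisphosphate kinase found mainly in muscle, held 7 (0.384 per kb), with 5 in both pools. Its 2 strongest peaks had signal values of 6.12 and 8.69, the latter being 8.35 in pool E and 9.61 in pool F. Ube2d1, which encodes a ubiquitin-conjugating enzyme, held 7 peaks (0.382 per kb) with a summed width of 50.5% of its eligible body. Alkbh5, an RNA demethylase, held 5 (0.375 per kb), 4 of which overlapped pool E only.

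Pgm1, a phosphoglucomutase of glycogen metabolism, held 15 peaks in 42.5 kb (0.353 per kb), and 14 overlapped both pools. Cdc42ep3 (0.350), a Cdc42 effector, and Ptp4a2 (0.350), a phosphatase, held 5 peaks each. Scn4a, the voltage-gated sodium channel of the muscle membrane, held 8 (0.325 per kb), and 7 overlapped both pools, although the highest peak within 1000 bp of its own TSSs had a signal value of 8.97 only. Klhl31, a kelch protein of the sarcomere, held 6 (0.322 per kb), with signal values of 3.33 to 8.28 in the replicated list. In pool E, 3 of these 6 lay under longer peaks that ran on into stronger neighbours, with signal values of 33.7 or 40.0, while the same 3 had 5.34 to 5.48 in pool F. Of the 12 densest genes, Jph2, Scn4a and Klhl31 were in the muscle gene lists.

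**Figure D2:**
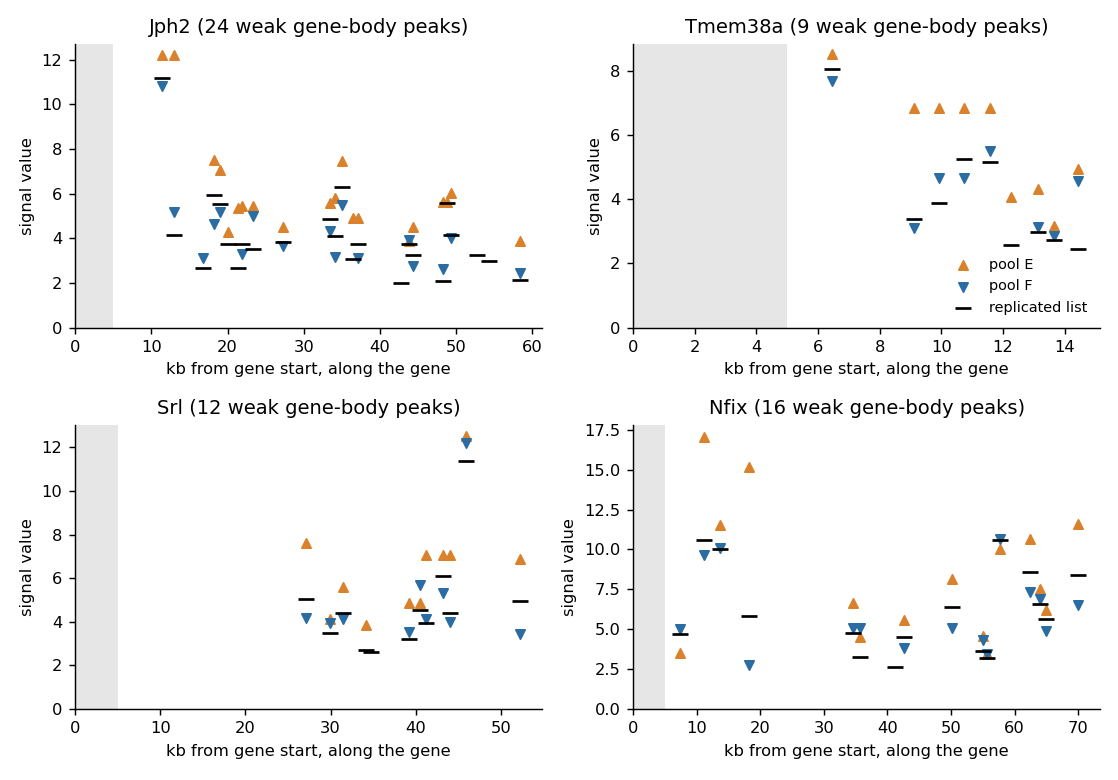
Signal value of each weak gene-body peak against its distance along the gene (kb from gene start) in Jph2, Tmem38a, Srl and Nfix, in the replicated list (dashes), pool E (upward triangles) and pool F (downward triangles). The shaded strip is the 5 kb after the gene start; peaks lacking a triangle had no overlapping peak in that pool, as in Jph2 for 4 peaks in pool F, 1 in pool E and 3 in both, and in Jph2 the peak nearest the start is the highest, at 11.2.

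Genes with the most peaks were mainly long. Gm20388 had 83 peaks, but its annotated span contains other genes, and 30 of the peaks lay in no other gene. Gse1, inside that span, held 25, none of them unique to it, and only 2 of the 26 in the annotated span of Fgfr2 were in no other gene. Zbtb16, the transcription factor PLZF, held 38 peaks in 177 kb (0.215 per kb), all unique to it, with 35 peaks of pool E and 37 of pool F by the same selection and signal values up to 9.66. Pde4d, a cyclic AMP phosphodiesterase, held 26 over 1345 kb, and Zfhx3, a homeobox transcription factor, held 22 over 904 kb. Ttn, which encodes the giant sarcomeric protein titin, held 23 over 192 kb, of which 11 overlapped both pools. One Ttn peak, 176 kb from the gene start and 17446 bp from the nearest TSS, had a signal value of 14.6 (18.4 in pool E and 13.1 in pool F), while the other 22 had 2.00 to 5.32.

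Muscle genes carried weak gene-body peaks more often than protein-coding genes at large. Of 178 genes of 8 muscle lists that could be examined, 123 (69.1%) held at least 1, against the 25.1% over all genes, and they held 578 peaks at 32.6 per Mb of eligible body (exact Poisson interval 30.01 to 35.4) against 12.1 per Mb over all genes, with a peak counted once for each gene it lies in. The median muscle gene held 21.9 peaks per Mb, and the median gene none. The count was 121 by the pool E list and 122 by the pool F list, and 113 of the 178 genes held a peak overlapped in both pools, against 21.4% of all 12666 genes. The share of the 578 peaks overlapped in both pools was 70.6%. The lists were chosen with earlier results of these data known. A further 46 genes on them had less than 1 kb of eligible body and were not examined.

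Gene length and promoter mark moved with this difference. Of genes with a peak within 1000 bp of an own TSS, 29.8% held a weak gene-body peak (13.4 per Mb), against 7.65% of the others (3.29 per Mb), and 176 of the 178 muscle genes were so marked. Within genes of 30 to 100 kb of eligible body, 41 of 54 muscle genes (75.9%) held a peak, against 44.9% of 2559 marked genes. Within 100 to 300 kb the muscle lists had 35 of 37 (94.6%), against 64.8% of marked genes. The share of muscle genes was higher than that of marked genes in each of the 5 length classes, and 33.3% against 8.35% in the shortest.

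**Figure D3:**
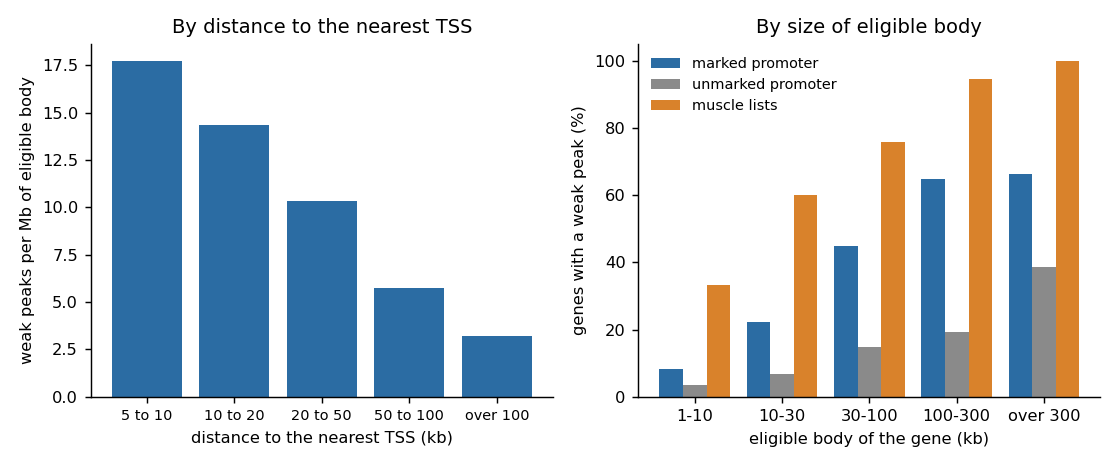
Left, weak gene-body peaks per Mb of eligible body by distance to the nearest TSS, all genes together, going from 17.7 at 5 to 10 kb down to 3.21 beyond 100 kb. Right, percent of genes holding at least 1 weak peak by size of eligible body, for genes with a marked promoter, with an unmarked promoter and on the muscle lists; the muscle bars are the highest in every class.

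Among genes of the triad and of calcium handling, each of the 18 examined held at least 1 peak (48.2 per Mb), and 17 held one overlapped in both pools. Cacnb1, the beta subunit of the dihydropyridine receptor, held 3 peaks in 6.04 kb, the strongest with a signal value of 12.3 (13.6 in pool E and 12.7 in pool F). Srl, which encodes the calcium-binding protein sarcalumenin, held 12 in 44.1 kb (0.272 per kb), 10 of them in both pools. The Srl peak nearest the gene start lay 27.1 kb from it, and 6767 bp from the nearest TSS. Bin1, which shapes T-tubule membranes, held 9, and 8 overlapped both pools. Ryr1, the calcium release channel, held 3 in 71.1 kb, and Trdn, which encodes triadin, held 3 in 291 kb, of which 1 overlapped both pools.

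Genes of the sarcomere and Z-disc held peaks in 23 of 29 cases (66.2 per Mb), and 22 held one overlapped in both pools. Ldb3, a Z-disc scaffold, held 10 peaks (0.219 per kb), 6 of them in both pools, with a highest signal value of 8.30. Trim54, a sarcomeric ubiquitin ligase, held 3 in 10.6 kb, all in both pools, and Myom2, which encodes an M-band protein, held 8, of which 3 overlapped both pools. Smyd1, Trim63 and Unc45b held none, although their promoters had signal values of 38.8, 50.1 and 42.4.

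The fibre type lists were short. Of 8 fast fibre genes 5 held a peak (99.0 per Mb, interval 42.7 to 195, on 8 peaks), and of 9 slow fibre genes 1 did, Mybpc1 with 3 peaks. By the pool E list the counts were 2 of 8 and 3 of 9, and by the pool F list 4 of 8 and 1 of 9, so the order of the lists differed between pools. Pvalb, the calcium buffer parvalbumin of fast fibres, held 3 peaks with a summed width of 56.0% of its 8.12 kb of eligible body. All 3 overlapped both pools, and the strongest had a signal value of 10.5 (12.8 in pool E and 9.44 in pool F). The 2 peaks of Myh4 and the 1 of Myh2, fast myosin heavy chains, overlapped no peak of either pool. Their signal values were 1.98 and 3.65 in Myh4 and 2.60 in Myh2. Both genes have similar neighbours to which reads may be shared, and the part of this was not tested.

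Transcription and chromatin regulators of muscle held peaks in 25 of 33 genes (30.8 per Mb). Hdac5, a class IIa histone deacetylase that represses MEF2, held 5 in 9.31 kb (0.537 per kb), of which 3 overlapped both pools. Nfix, a nuclear factor of the fetal-to-adult myogenic programme, held 16 in 56.0 kb (0.286 per kb), 15 in both pools, with signal values of 2.63 to 10.6. Rxra, the retinoid X receptor partner of many nuclear receptors, held 11, with 7 in both pools. Mef2a (98.7 kb) and Tbx15 (81.4 kb), transcription factors of muscle, held none, although the pool F list had 1 such peak in Tbx15.

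Of metabolic and signalling genes 26 of 39 held a peak (34.3 per Mb). Hk2, a hexokinase of muscle glycolysis, held 5 with a highest signal value of 13.3, and Alpk3, a kinase of striated muscle, held 5 of which 1 overlapped both pools. In the dystrophin complex and costamere list, of many long genes, 15 of 24 held a peak at a rate of 14.7 per Mb, near that of all genes. Sorbs2 (178 kb) and Dysf (149 kb, encoding the membrane repair protein dysferlin) held none, although the pool E list had 1 such peak in Dysf. Neuromuscular junction and satellite cell genes held peaks in 10 of 18 cases (17.5 per Mb). Pax7 (90.9 kb), the satellite cell factor, and Musk (83.1 kb), the receptor kinase of the junction, held none, although the pool lists held 1 and 2 such peaks in pool E and 2 and 0 in pool F.

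Gene lists other than the muscle lists were read against the same background of 25.1% of genes and 12.1 peaks per Mb. For cells that accompany muscle fibres, endothelial genes held a peak in 13 of 15 cases (86.7%, 34.6 per Mb), fibroblast and tendon cell genes in 10 of 18 (55.6%, 39.2 per Mb) and smooth muscle and pericyte genes in 9 of 11 (81.8%, 24.0 per Mb). Clock genes, which are not particular to a cell type, did in 7 of 13 (53.8%, 32.7 per Mb). Pecam1, an endothelial adhesion molecule, held 9 peaks, 5 of them in both pools. Macrophage and lymphocyte genes held peaks in 3 of 14 cases (21.4%, 10.7 per Mb) and Schwann cell genes in 2 of 9 (22.2%, 2.47 per Mb). Both shares were near the background, but the Schwann cell rate was below it (interval 0.801 to 5.76 per Mb). All 9 Schwann cell genes had a marked promoter. Of lists for other organs, hepatocyte genes held peaks in 2 of 12 cases (16.7%, 5.89 per Mb) and cardiac genes in 3 of 8 (37.5%, 4.12 per Mb). Neuronal genes, many of them very long (median 973 kb of eligible body), held peaks in 10 of 23 cases (43.5%), but at 1.86 per Mb. Marked genes with over 300 kb held peaks in 66.3% of cases, at 5.90 per Mb. The part of each cell type in the peaks of a shared gene was not tested.

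**Figure D4:**
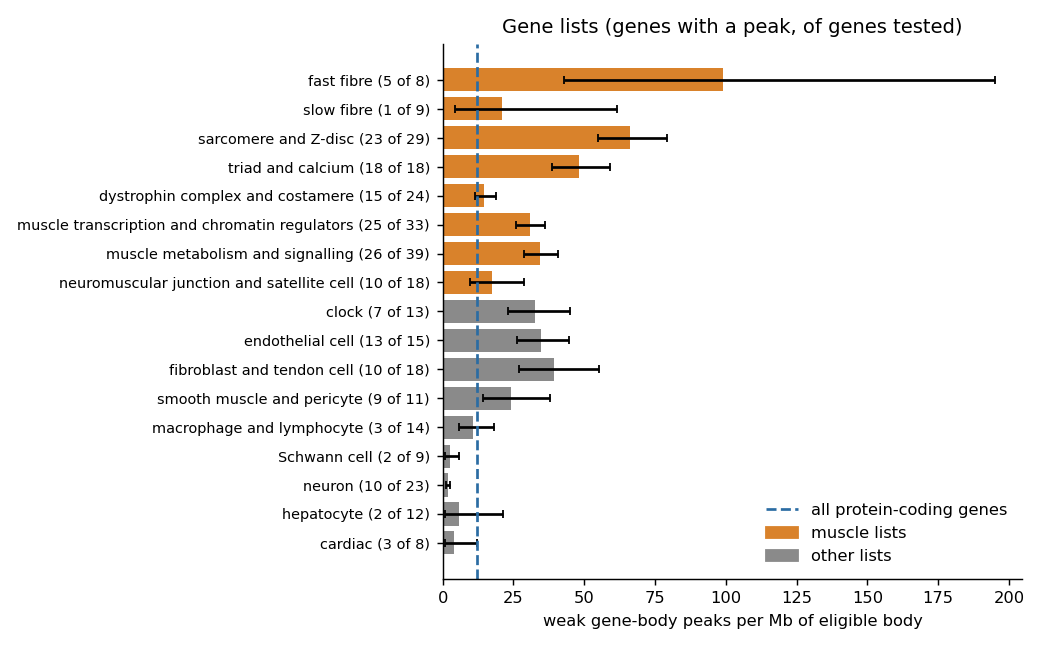
Weak gene-body peaks per Mb of eligible body for 17 gene lists, with exact Poisson 95% intervals that cover counting error only; in brackets, genes holding a peak of genes examined. The dashed line is the level of all protein-coding genes, 12.1 per Mb, which is not matched for gene length or promoter mark. Lists above it include sarcomere (66.2) and triad (48.2) genes. Fibroblast and tendon cell (39.2), endothelial (34.6), clock (32.7) and smooth muscle and pericyte (24.0) genes, which are not muscle lists, also lie above it. Neuronal genes (1.86) lie below.

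Over all genes together, weak peaks were fewer per Mb farther from the nearest TSS of any gene. Their rate was 17.7 per Mb at 5 to 10 kb from the nearest TSS, 14.3 at 10 to 20 kb, 10.4 at 20 to 50 kb, 5.74 at 50 to 100 kb and 3.21 beyond 100 kb. The share overlapped in both pools showed no such fall, at 70.5% in the nearest and 70.4% in the farthest bin. With each gene cut into 3 equal parts, the rate was 14.6 per Mb in the part at the start, 11.6 in the middle and 10.4 at the end. The 9985 genes with a marked promoter were put into 4 equal groups by the signal value there. The groups held 5.74, 14.3, 19.2 and 18.9 peaks per Mb from the lowest to the highest.

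Most weak peaks lay in introns and stood alone. An exon was overlapped by 1138 peaks (14.1%), and 652 summits (8.10%) lay in an exon, where 5.31% of the eligible bases are exonic. Another replicated peak lay within 1000 bp of 2376 peaks (29.5%), and a peak that itself reached within 5000 bp of a TSS lay that near 338 (4.20%). Joining peaks closer than 1000 bp gave 6813 regions, of which 920 joined 2 or more and the largest 13.

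Weak gene-body peaks were compared with the 6105 weak peaks, selected on the same signal and distance limits, that lay outside protein-coding gene bodies. The test was Fisher's exact test (two-sided), adjusted by Benjamini-Hochberg over 10 tests, and peaks of 1 list are not biological replicates. Fewer gene-body peaks overlapped both pools, 72.0% against 77.9% (odds ratio 0.732, Fisher's exact test, adjusted p = 1.25e-14). Their signal value was also lower, with a median of 4.22 against 4.98. Within 5 classes of signal value, an analysis added after the data were seen, the order turned around: 29.5% against 27.6%, 59.3% against 54.6%, 88.7% against 86.2%, 99.0% against 98.3%, and 100% in both, from the weakest class to the strongest. The odds ratio across these classes was 1.19 (Mantel-Haenszel estimate, exact conditional test, two-sided, adjusted p = 0.00265).

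The summits of weak gene-body peaks were poorer in CpG than those of weak intergenic peaks. In 300 bp windows at the summit, 3.68% were CpG-dense (observed over expected CpG of at least 0.6 and GC of at least 50%), against 6.73% (odds ratio 0.529, exact test, adjusted p = 2.42e-15). The GC box, a site of the SP family, was in 9.69% against 13.9% (odds ratio 0.662, exact test, adjusted p = 2e-14). The nuclear receptor hexamer went the other way, with 18.7% against 16.3% (odds ratio 1.18, exact test, adjusted p = 0.000487). With the signal classes as strata the odds ratios were 0.661, 0.735 and 1.16. The CTCF core was in 0.571% against 1.15% (odds ratio 0.495, exact test, adjusted p = 0.000487), a difference that did not pass in 200 bp windows (odds ratio 0.758, adjusted p = 0.858). The E-box, the motif of the myogenic MYOD family, was in 23.4% against 24.6% (exact test, adjusted p = 0.158), and the AP-1, MCAT, MEF2 and SRF motifs also did not pass the threshold.

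Both sets of peaks were set beside the 2214960 windows of 300 bp that tile the eligible gene bodies. The median GC content was 49.3% at the summits of weak gene-body peaks and 42.3% over all windows. CpG-dense sequence was in 3.68% against 0.330%, the GC box in 9.69% against 2.69%, and the E-box in 23.4% against 11.5%. The MEF2 consensus, rich in A and T, was less frequent at the summits, 4.83% against 6.83%, and the nuclear receptor hexamer was in 18.7% against 16.7%. Windows at least 50% repeat-masked made up 1.74% of the summits and 20.0% of all windows. In the 578 peaks of muscle-list genes the E-box was in 20.8% and the MEF2 consensus in 4.33%, against 23.6% and 4.87% in the weak peaks of other genes.

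**Figure D5:**
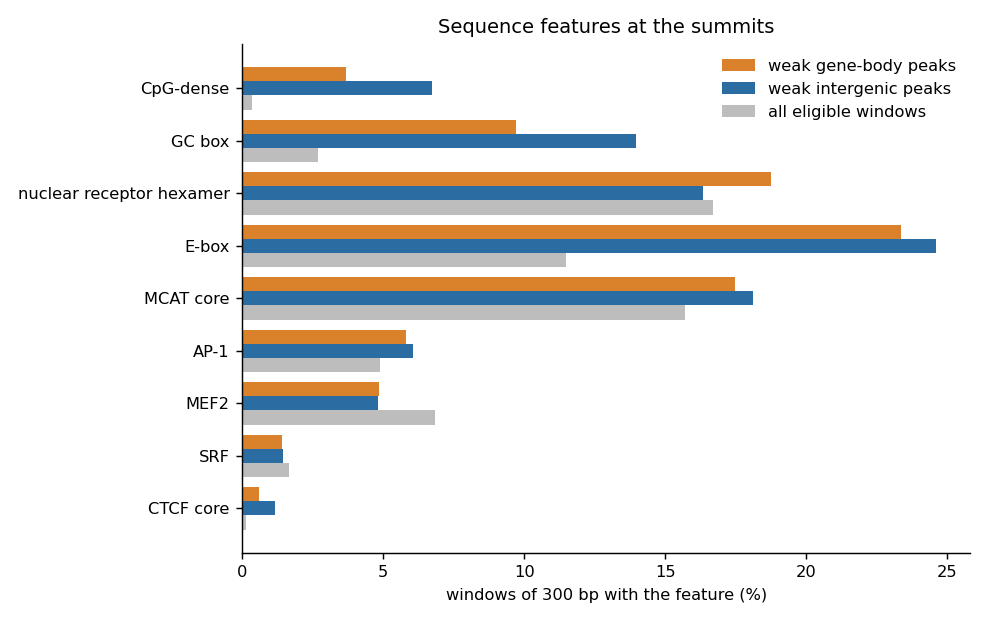
Percent of 300 bp windows holding each sequence feature at the summits of weak gene-body peaks, at those of weak intergenic peaks, and over all windows tiling the eligible gene bodies. CpG-dense windows and the GC box are most frequent in the intergenic peaks (6.73% and 13.9%) and least in all windows.

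The 237 gene-body peaks at the same distance from a TSS with a signal value of 20 or more had a median width of 1352 bp against 543 bp. CpG-dense windows made up 37.1% of them and the GC box was in 35.0%, against 9.07% and 15.2% of the strongest class of weak peaks and 1.24% and 6.02% of the weakest. The MEF2 consensus was in 1.27% of the strong peaks. Since these sets were formed on the signal value, the values are a description.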

How the data were processed

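H3K4me3 ChIP-seq was done on 4 libraries of gastrocnemius from 2 pools. The deposited lists hold, for each peak, the authors' signal value and the -log10 of its p-value and q-value, in narrowPeak column order. Per a text file deposited with every library, the replicated list was made from the mm10 alignments of both pools, and other lists from each pool and from both pooled. The aligner, the peak caller and its settings are not given in the sources used here, and depth is unknown.

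From these lists, autosomal peaks were classed against GENCODE M21 (all transcript starts, distance from the nearest peak edge, overlap of 1 bp). Gene rates were peaks per eligible body, the part of a gene over 5000 bp from every TSS, in genes with at least 1 kb of it. Overlap with a pool needed 1 bp. Sequences came from RefSeq GRCm38.p6; motifs were searched on both strands in 300 bp summit windows, overlaps allowed. Scripts used Python 3.11.15, numpy 2.4.6, pandas 2.3.3, scipy 1.17.1 and matplotlib 3.10.9, and were tested on simulated data. Intervals are 95%. Columns of samples that could not be matched to the labels numbered 0.

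Named genes were the 12 densest (at least 5 peaks and 10 kb), the 8 with most peaks, the 15 densest of the muscle lists (at least 3 peaks), the 6 longest muscle genes with none, and the peaks nearest each limit; further genes were chosen after their values were seen. One gene of the first group and one marker gene are not reported here. The members and the gene lists were chosen with earlier results of these data known. Alternatives changed the signal limit, distance, q-value, overlap, annotation, list and denominator.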

Additional observations from a re-analysis of the deposited data

Results flagged for a closer look

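The X chromosome was left out of the selection. It held 76 weak gene-body peaks by the same limits, of which 55 (72.4%) overlapped both pools, at 2.20 per Mb of eligible body. Shroom4 held the most, 4, and Dmd, which encodes dystrophin, held 2 over 2122 kb.

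The list made from both pools together held 1691 peaks that met the selection and overlapped no replicated peak. Their median signal value was 2.86. Pool E had a peak at 66.7% of them and pool F at 6.03%, 16 had one in both, and 477 in neither.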

How the results depend on the processing

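The share of weak gene-body peaks overlapped in both pools (72.0%) was 69.3% with a signal limit of 10, 73.3% with a q-value of at most 0.05, 78.0% with at most 0.01, and 67.8% when 50% of the peak had to be overlapped. The share of genes with a peak (25.1%) was 23.7% with a signal limit of 10, 26.5% with TSSs of protein-coding genes only, 24.0% with a q-value of at most 0.01, 26.6% in the pooled list, and 23.9% with peaks in 1 gene only. It was 29.8% over genes with a marked promoter, a setting chosen after seeing the data. The rate of 12.1 per Mb, with a peak counted once for each gene it lies in, was 11.0 and 12.4 with signal limits of 10 and 40, and 13.5 and 10.2 with distances of 2500 and 10000 bp. It was 12.6 with protein-coding TSSs, 11.8 and 10.9 with the q-value limits, 14.0 in the pooled list, 10.3 with joined peaks and 8.57 over whole gene bodies. At 10000 bp the number of peaks was 5146. With 1 pool left out, the list of the other gave shares of genes from 23.3% to 25.2% and rates from 10.6 to 12.5 per Mb. The comparison with intergenic peaks in overlap by both pools turned from an odds ratio of 0.732 to 1.19 with 5 signal classes as strata, also chosen after seeing the data. Of the other results, the CTCF difference was lost in 200 bp windows. The E-box (signal limit of 10) and MEF2 (whole peak) differences passed in 1 setting each, at odds ratios of 0.907 and 1.18. The causes were not tested, except that fewer peaks enter under stricter limits. No paired analysis was possible because the libraries of a pool entered 1 list together, so the technical replicate numbers that the pools share carry no values. With depth unknown, no limit of detection can be given.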
